A study of Mus musculus with 15 samples.

Results

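Interferon-stimulated genes were followed in mouse LSK cells, the lineage-negative, Sca-1-positive and Kit-positive fraction of bone marrow that holds hematopoietic stem and multipotent progenitor cells. The set was a list of 37 gene symbols that interferons are known to induce, chosen with earlier results of these data known. A listed gene was measured where a probe set of the array carried its symbol and no other, and the brightest such probe set stood for the gene. This gave 33 of the 37 listed genes, among 22180 genes in all. Dtx3l, Gbp2 and Oas1a were carried only by probe sets that also name a neighbouring gene (Parp9, Gbp2b and Oas1g), and Ifi44 had no probe set of its own, so these 4 genes entered no comparison.

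The series holds 15 Affymetrix Mouse Gene 2.0 arrays in 3 groups of 5, which the design text calls biological replicates. One group was taken directly after cell sorting (non-cultured). The others were kept for 18 h in MyeloCult M5300 medium, either with nothing added (without EV) or with extracellular vesicles (EV) released by AFT stromal cells (with EV). For strain, genotype, age and sex of the mice, EV dose and pooling of animals, nothing is stated in the labels or design text. The cultured groups share medium and time, and as far as the labels say they differ in the vesicles alone. Both culture comparisons use the same 5 non-cultured arrays, so their values are given side by side and are not independent of each other.

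Type I interferons bind the receptor made of IFNAR1 and IFNAR2, whose kinases JAK1 and TYK2 phosphorylate STAT factors such as STAT2. With IRF9, STAT2 acts in a complex that binds the interferon-stimulated response element (ISRE) in the promoters of its targets, while interferon gamma acts through the gamma-activated site (GAS). Stem cells keep part of this programme on without added interferon, and acute interferon exposure is known to drive dormant hematopoietic stem cells into cycle.

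In culture, members of the set were lower than in freshly sorted cells far more often than they were higher, and no member was called between cells cultured with and without EV. This holds for the chosen members: 75 further interferon-stimulated genes went both ways, with median log2 differences of -0.09 without EV and -0.05 with EV. Cells cultured without EV had 12 of 33 members called (36.4%), 11 of them lower and 1, Stat2, higher. A gene was called at a limma adjusted p under 0.05 over all 22180 genes, and 13.6% of all genes were called in the same comparison, 6.88% lower and 6.75% higher. Cells cultured with EV had 10 of 33 members called against non-cultured cells (30.3%), all 10 lower, where 14.1% of all genes were called and 7.85% were called lower. Between the cultured groups 0 of 33 members were called, where 0.198% of all genes (44 genes) were called, and 2 members, Cxcl10 and Ifitm2, had an unadjusted p under 0.05, where 6.82% of all genes had one.

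Counts over all members, called or not, also leaned to lower. Without EV, 26 of 33 members (78.8%) lay below non-cultured cells, against 47.6% of all genes, and the median log2 difference was -0.33 over the members and 0.01 over all genes. With EV, 27 of 33 members (81.8%) lay below, against 42.2% of all genes, with medians of -0.38 and 0.04. Of the members that were not called, 15 of 21 lay below non-cultured cells without EV (median -0.24) and 17 of 23 with EV (median -0.21), as a description only, since the calls set who is left. The unadjusted p was under 0.05 for 17 members without EV and for 19 with EV, where 24.3% and 26.0% of all genes had one. The mean log2 signal over the 33 members lay between 6.03 and 6.27 in the 5 non-cultured arrays, between 5.70 and 5.83 in the 5 arrays without EV and between 5.72 and 5.78 in the 5 with EV, so every cultured array was below every non-cultured one. The members were not uniform, however: 9 were called in both culture comparisons, 13 in at least 1 and 20 in neither, and the 20 include Mx1, Ifit1, Ifit3, Isg15 and Usp18. Both comparisons share their non-cultured arrays, and the shares of all genes called in both or in neither are not given here. The overlap of 9 is therefore not read as a result about the members.

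**Figure D1:**
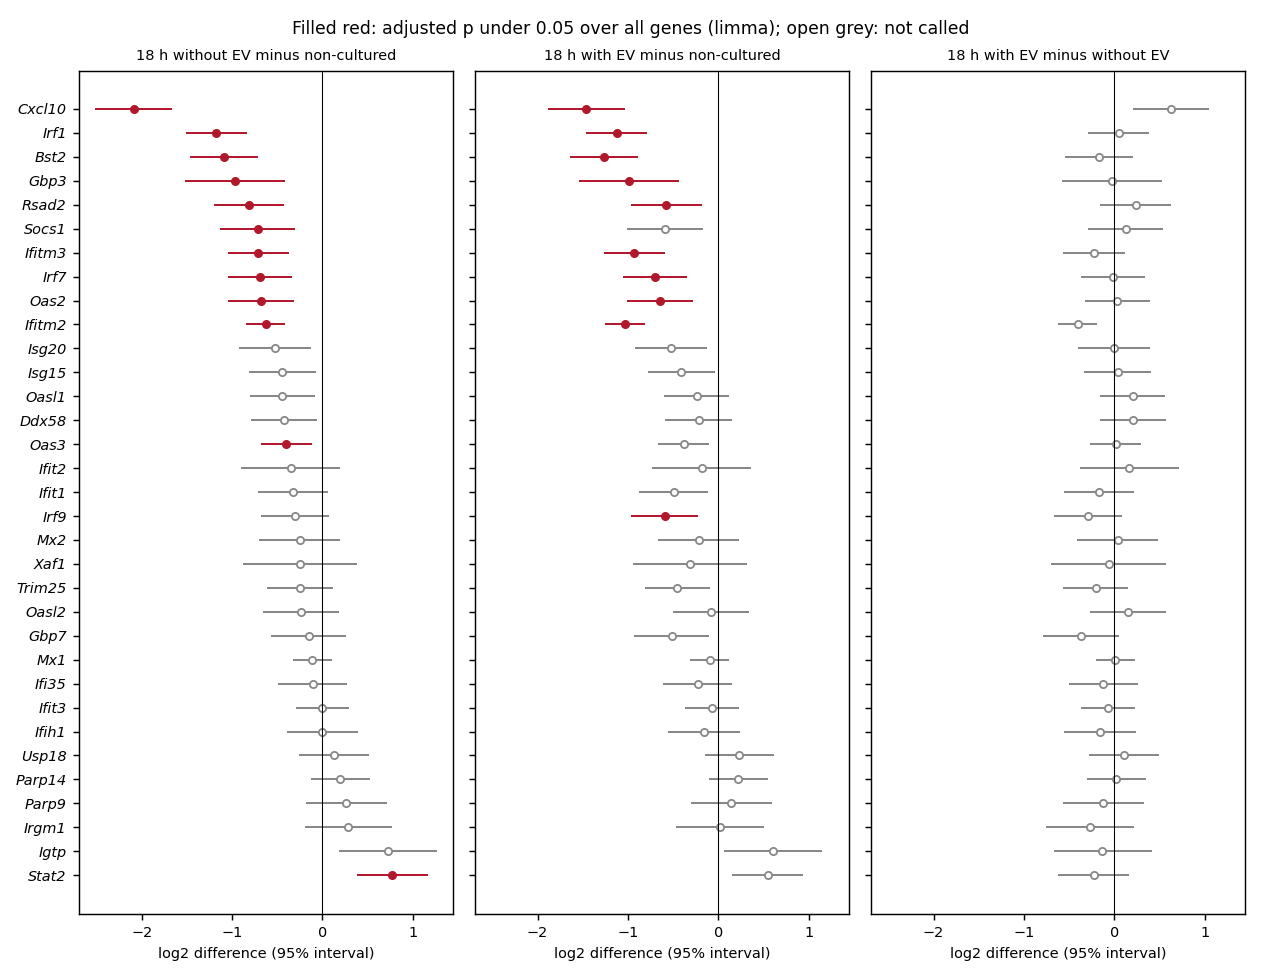
Log2 difference (x axis) of each of the 33 measured members (rows) in the 3 comparisons, with 95% intervals from the limma fit; called members stand out from those not called. Most points of both culture comparisons lie left of 0, from Cxcl10 at -2.09 without EV to Stat2 and Igtp at 0.77 and 0.73, while the points of with EV against without EV gather around a median of -0.01.

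Promoter sequence was not itself used to choose the members. Induction by interferons was, and it acts through the ISRE and GAS, so the shares below describe the list and are no separate support for it. RefSeq promoter windows (GRCm38.p6) reaching from 250 bases before to 50 bases after an annotated start were found for 31 of the 37 listed genes. The ISRE core searched was GAAANNGAAA, 2 GAAA boxes with 2 bases between them, and the GAS core was TTCNNNGAA. Both were searched on both strands, and overlapping matches were counted. An ISRE core was present in 19 of 31 listed genes (61.3%) and in 3.99% of 27025 genes with a window. A GAS core was present in 9 of 31 (29.0%) and in 9.55% of those genes. An ISRE core without a GAS core was found in 14, both in 5, a GAS core alone in 4 (Irf1, Ifit2, Isg20 and Ifi35) and neither in 8 (Irf7, Irf9, Trim25, Oasl1, Oasl2, Dtx3l, Ifi44 and Xaf1).

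The 7 windows below are those of the members with the largest fall in 5 role groups (Irf1, Cxcl10, Bst2, Gbp3 and Socs1), of Stat2, the member that rose, and of Isg15, a member with 3 ISRE cores that was not called. They were picked with the values known. Each reads 5′ to 3′ on the gene's strand, and capitals mark the ISRE and GAS cores.
Irf1: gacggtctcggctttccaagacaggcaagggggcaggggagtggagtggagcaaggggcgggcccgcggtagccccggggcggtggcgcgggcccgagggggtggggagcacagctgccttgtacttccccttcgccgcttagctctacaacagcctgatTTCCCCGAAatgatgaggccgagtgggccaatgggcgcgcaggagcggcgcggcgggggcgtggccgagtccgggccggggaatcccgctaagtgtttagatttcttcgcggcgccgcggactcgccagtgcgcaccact
Cxcl10: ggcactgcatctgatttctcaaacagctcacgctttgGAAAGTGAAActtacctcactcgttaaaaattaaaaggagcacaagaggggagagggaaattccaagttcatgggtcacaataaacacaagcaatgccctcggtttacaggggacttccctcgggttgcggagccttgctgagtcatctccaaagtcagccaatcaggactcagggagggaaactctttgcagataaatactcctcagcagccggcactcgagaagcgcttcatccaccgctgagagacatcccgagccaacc
Bst2: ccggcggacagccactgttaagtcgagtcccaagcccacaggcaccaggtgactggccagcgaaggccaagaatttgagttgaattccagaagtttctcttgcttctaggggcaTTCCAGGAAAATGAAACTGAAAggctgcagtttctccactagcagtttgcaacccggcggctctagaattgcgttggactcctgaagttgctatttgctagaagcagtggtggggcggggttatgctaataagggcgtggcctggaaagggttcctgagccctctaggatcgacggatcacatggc
Gbp3: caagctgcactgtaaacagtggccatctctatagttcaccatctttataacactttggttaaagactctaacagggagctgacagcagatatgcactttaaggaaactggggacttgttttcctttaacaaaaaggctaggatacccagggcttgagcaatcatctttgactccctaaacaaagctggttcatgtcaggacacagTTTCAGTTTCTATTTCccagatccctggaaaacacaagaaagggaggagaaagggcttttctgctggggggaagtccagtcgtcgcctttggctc
Socs1: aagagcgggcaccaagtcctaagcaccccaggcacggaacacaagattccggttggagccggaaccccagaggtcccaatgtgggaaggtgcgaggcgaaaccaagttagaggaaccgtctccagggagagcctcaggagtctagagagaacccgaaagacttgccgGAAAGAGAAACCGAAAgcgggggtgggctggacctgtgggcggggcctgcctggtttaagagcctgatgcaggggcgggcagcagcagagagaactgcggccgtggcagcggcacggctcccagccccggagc
Stat2: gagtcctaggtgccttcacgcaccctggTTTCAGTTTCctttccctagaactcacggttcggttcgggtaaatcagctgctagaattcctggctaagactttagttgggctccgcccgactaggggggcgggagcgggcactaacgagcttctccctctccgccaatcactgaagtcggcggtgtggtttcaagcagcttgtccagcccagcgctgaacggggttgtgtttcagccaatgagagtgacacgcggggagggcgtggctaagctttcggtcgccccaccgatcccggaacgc
Isg15: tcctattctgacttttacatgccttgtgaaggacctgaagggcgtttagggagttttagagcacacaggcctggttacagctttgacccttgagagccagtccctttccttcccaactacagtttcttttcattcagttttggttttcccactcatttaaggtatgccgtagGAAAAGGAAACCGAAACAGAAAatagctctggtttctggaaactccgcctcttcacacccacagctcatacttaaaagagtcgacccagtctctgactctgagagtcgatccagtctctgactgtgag
These windows lie at chr11:53769764-53770063 on the plus strand (Irf1), chr5:92348840-92349139 on the minus strand (Cxcl10), chr8:71537423-71537722 on the minus strand (Bst2), chr3:142559794-142560093 on the plus strand (Gbp3), chr16:10785487-10785786 on the minus strand (Socs1), chr10:128270248-128270547 on the plus strand (Stat2) and chr4:156200769-156201068 on the minus strand (Isg15). The last 50 bases of each lie within the transcript. Counting the annotated start as position 0, the window of Irf1 holds a GAS core from -90 to -82 and no ISRE core. Cxcl10 holds 1 ISRE core, from -213 to -204, and Stat2 holds 1 on the opposite strand, from -222 to -213. In Gbp3, Socs1 and Isg15 the cores overlap, so that 3 GAAA boxes follow each other in Gbp3 (-45 to -30, read on the opposite strand) and Socs1 (-83 to -68), and 4 in Isg15 (-78 to -57). In Bst2 a GAS core (-136 to -128) runs into 2 overlapping ISRE cores (-130 to -115).

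ISRE cores stood both in members that were called, Stat2 that rose among them, and in members that were not called. Of the 12 members called in at least 1 culture comparison that had a window, 9 held an ISRE core (75.0%), and of the 15 called in neither that had a window, 8 did (53.3%). Isg15, Ifit1 and Ifit3, with at least 2 cores each, were among those not called, and Irf7, called lower in both comparisons, had no core in its window. Over all genes, an ISRE core stood in 3.80% of those called lower without EV, in 4.65% of those called higher and in 3.81% of those not called. The absence of a match says only that these letters are not in that window.

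**Figure D2:**
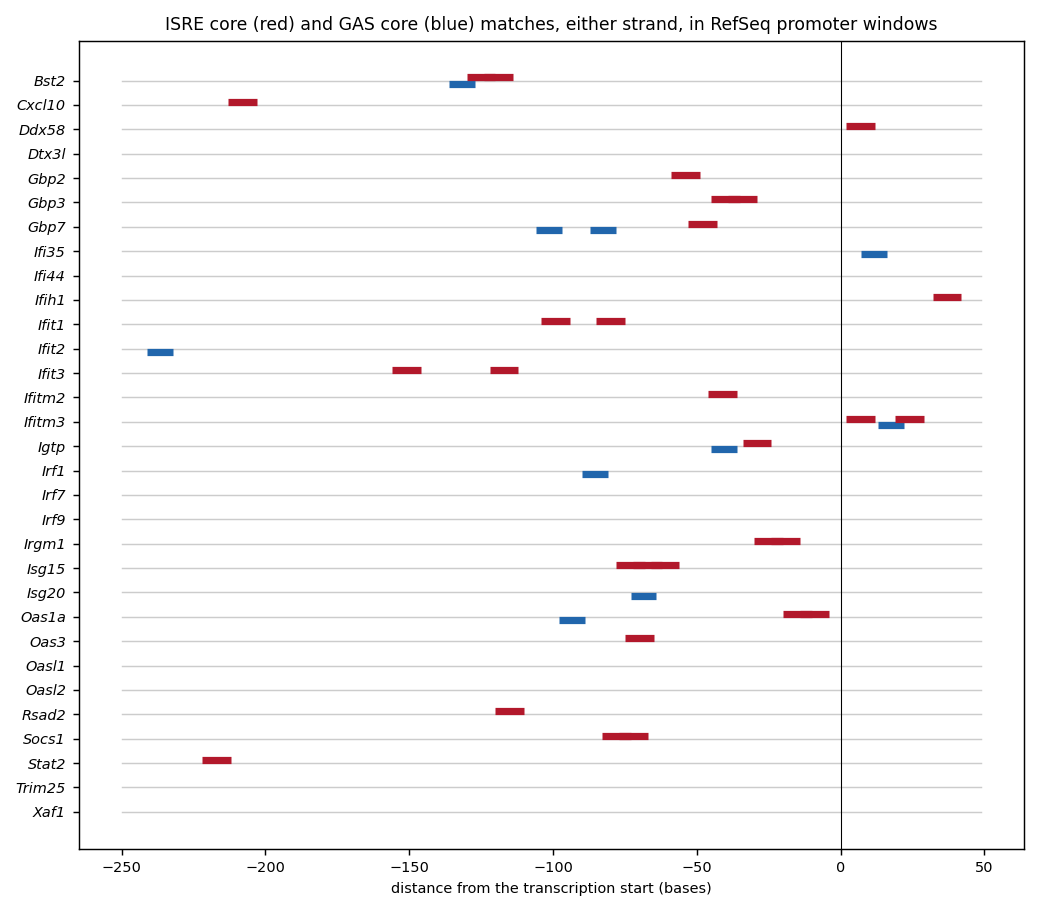
Positions of ISRE and GAS cores (bars) in the promoter windows of the listed members (rows), as distance in bases from the annotated start (x axis). ISRE cores reach from -222 in Stat2 to within the transcript in Ifih1, Ddx58 and Ifitm3, and Isg15 has 3 of them between -78 and -57.

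Among the transcription factors of the set, Irf1 and Irf7 fell in culture, Irf9 was called lower with EV alone, and Stat2 rose without EV. Irf1 is an early interferon-induced factor that itself maintains basal interferon-stimulated gene expression. Its log2 signal was 7.25, 7.07, 7.39, 7.60 and 7.41 in non-cultured replicates 1 to 5, then 6.0, 6.22, 5.88, 6.29 and 6.46 without EV and 5.69, 6.21, 6.45, 6.52 and 6.21 with EV. Every non-cultured array lay above every cultured one. The log2 difference from non-cultured cells was -1.17 without EV (SE 0.15, n = 5 against 5, limma adjusted p = 6.41e-05) and -1.13 with EV (SE 0.15, adjusted p = 9.57e-05). With EV against without EV, Irf1 differed by 0.05 (95% interval -0.28 to 0.38).

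Irf7, the factor that amplifies type I interferon production, read 5.56, 5.47, 5.71, 6.07 and 5.19 in non-cultured cells, 4.78, 4.75, 5.01, 4.75 and 5.25 without EV and 5.26, 4.86, 4.88, 4.53 and 4.92 with EV. Only the lowest non-cultured array, replicate 5, fell within the range of the cultured arrays. Irf7 differed by -0.69 without EV (SE 0.16, adjusted p = 0.00814) and -0.71 with EV (SE 0.16, adjusted p = 0.0071).

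Irf9, the DNA-binding partner of STAT2, read 6.43, 5.65, 6.63, 6.56 and 6.44 in non-cultured cells, 5.90, 6.18, 5.74, 5.98 and 6.39 without EV and 5.97, 5.83, 5.49, 5.73 and 5.70 with EV. Non-cultured replicate 2 lay below 4 of the 5 arrays with EV, and the other 4 non-cultured arrays lay above every cultured array. The log2 difference was -0.60 with EV (SE 0.17, adjusted p = 0.0272) and -0.30 without EV (SE 0.17, adjusted p = 0.319). The difference between the cultured groups was itself not called, at -0.29 (SE 0.17, adjusted p = 0.773). The call with EV was lost when replicate 3, 4 or 5 with EV or replicate 1, 3, 4 or 5 of the non-cultured cells was left out, with adjusted p from 0.0516 to 0.0725, and without non-cultured replicate 2 Irf9 was also called without EV (log2 difference -0.48, adjusted p = 0.0254).

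Stat2, which acts with IRF9 at the ISRE, was the single member called higher. It read 5.57, 6.16, 5.91, 6.03 and 6.02 in non-cultured cells, 6.27, 6.68, 6.99, 6.45 and 7.16 without EV and 6.03, 6.48, 6.44, 6.86 and 6.60 with EV. All 5 arrays without EV lay above all non-cultured arrays, and with EV replicate 1 alone fell among them. Its log2 difference was 0.77 without EV (SE 0.18, adjusted p = 0.00745) and 0.54 with EV (SE 0.18, adjusted p = 0.0542). With EV it passed the threshold when replicate 1 with EV was left out (0.66, adjusted p = 0.0196), and also when array 1 or 5 of the cells without EV was dropped (adjusted p = 0.0394 and 0.0396).

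Cxcl10, a chemokine that attracts T cells and is induced by both interferon types, showed the largest difference of any member. Its log2 signal was 6.45, 6.38, 6.71, 5.57 and 6.44 in non-cultured cells, 4.35, 4.50, 4.23, 4.11 and 3.92 without EV and 5.03, 4.65, 5.23, 4.91 and 4.44 with EV. Every non-cultured array lay above every cultured one, including non-cultured replicate 4, which was the lowest of its group. The log2 difference was -2.09 without EV (SE 0.19, adjusted p = 2.11e-06), a 4.25-fold lower level, and -1.46 with EV (SE 0.19, adjusted p = 7.36e-05), a 2.75-fold lower level. The arrays with EV were higher than those without EV in 24 of 25 pairs, by 0.63 (95% interval 0.21 to 1.04), but this was not called over all genes (adjusted p = 0.499, and 0.208 to 0.884 over the alternatives).

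**Figure D3:**
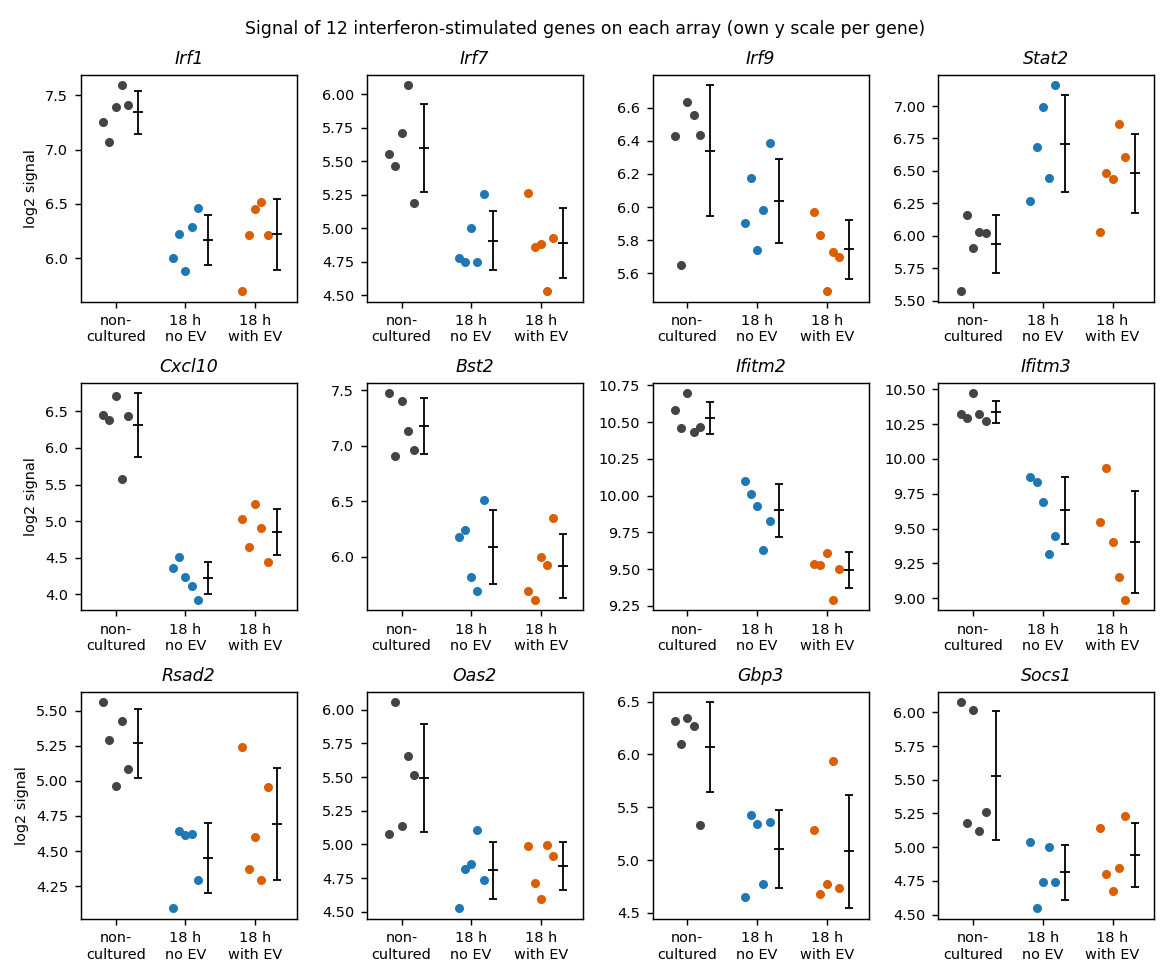
Log2 signal (y axis) of 12 members in each array, grouped as non-cultured, without EV and with EV (5 points a group, with the group mean and SD). Irf1, Cxcl10, Bst2, Ifitm2 and Ifitm3 separate the non-cultured arrays from all 10 cultured ones. In Irf7, Irf9, Rsad2, Gbp3, Oas2 and Socs1 a cultured group overlaps the non-cultured one. Stat2 runs the other way, and its group with EV overlaps the non-cultured one.

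All 4 membrane-associated antiviral effectors were called lower in both culture comparisons, where 6.88% of all genes were called lower without EV and 7.85% with EV. Bst2, or tetherin, which holds budding virus at the cell surface, read 7.47, 6.91, 7.40, 7.14 and 6.96 in non-cultured cells, 6.17, 6.24, 5.81, 5.69 and 6.51 without EV and 5.69, 5.61, 5.99, 5.92 and 6.34 with EV. The lowest non-cultured array was above the highest cultured one. Bst2 differed by -1.09 without EV (SE 0.17, adjusted p = 0.000373) and -1.26 with EV (SE 0.17, adjusted p = 9.57e-05).

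Ifitm2 and Ifitm3 encode transmembrane proteins that block viral entry at endosomal membranes, and IFITM3 is known as an interferon-stimulated protein that stem cells express without stimulation. Ifitm2 read 10.59, 10.46, 10.70, 10.44 and 10.47 in non-cultured cells, 10.10, 10.01, 9.93, 9.63 and 9.83 without EV and 9.54, 9.53, 9.61, 9.29 and 9.50 with EV. Ifitm3 read 10.32, 10.29, 10.47, 10.33 and 10.27, then 9.87, 9.83, 9.69, 9.31 and 9.45, and then 9.54, 9.94, 9.40, 9.15 and 8.99 in the same order. Neither gene's non-cultured arrays overlapped the cultured ones. The 3 groups of Ifitm2 did not overlap at all, with the arrays with EV lowest. Ifitm2 differed from non-cultured cells by -0.63 without EV (SE 0.10, adjusted p = 0.000311) and by -1.03 with EV (SE 0.10, adjusted p = 2.18e-06). Ifitm3 differed by -0.71 (SE 0.15, adjusted p = 0.00489) and by -0.93 (SE 0.15, adjusted p = 0.000552).

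Ifitm2 was the only member whose groups with and without EV did not overlap, where 1.20% of all genes had groups that did not. The difference between them was -0.41 (SE 0.10, 95% interval -0.61 to -0.20), and it was not called (adjusted p = 0.214, and 0.0659 to 0.884 over the alternatives). After quantile normalization the groups overlapped. Ifitm3 differed between the cultured groups by -0.23 (SE 0.15, adjusted p = 0.814). Ifitm2 and Ifitm3 are close paralogues with only Ifitm1 between them in the GRCm38.p6 gene order, and signal shared between their probe sets was not tested.

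Rsad2, or viperin, an enzyme that makes a chain-terminating nucleotide against viral polymerases, read 5.56, 5.29, 4.96, 5.43 and 5.09 in non-cultured cells, 4.09, 4.64, 4.62, 4.62 and 4.29 without EV and 5.24, 4.37, 4.60, 4.30 and 4.96 with EV. The arrays without EV all lay below the non-cultured ones, while replicate 1 with EV lay among them. The log2 difference was -0.81 without EV (SE 0.18, adjusted p = 0.00535) and -0.57 with EV (SE 0.18, adjusted p = 0.0423). The call with EV rested on single arrays: it was lost without replicate 2, 3 or 4 with EV, without replicate 1, 2 or 4 of the non-cultured cells and on dropping replicate 5 cultured without EV, with adjusted p from 0.0501 to 0.111, and it held in the other 8 of 15 fits.

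Among the 8 measured effectors that bind or degrade RNA, all 8 lay below non-cultured cells in both comparisons, where 47.6% and 42.2% of all genes did. Ifit3 did so without EV by only -0.0007. Neighbouring relatives are among the 8 (Oas2 and Oas3, Oasl1 and Oasl2, Ifit2 and Ifit3), so these are not 8 separate observations. Oas2 was called in both comparisons, Oas3 without EV alone, and the other 6 in neither. The Oas genes encode synthases of the oligoadenylate messenger that activates RNase L. Oas2 read 5.08, 6.06, 5.14, 5.66 and 5.52 in non-cultured cells, 4.53, 4.81, 4.86, 5.11 and 4.74 without EV and 4.99, 4.71, 4.60, 4.99 and 4.91 with EV. The arrays with EV all lay below the non-cultured ones, and without EV the groups crossed in 1 of 25 pairs. Oas2 differed by -0.68 without EV (SE 0.17, adjusted p = 0.0105) and -0.65 with EV (SE 0.17, adjusted p = 0.0145).

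Oas3, its neighbour in the gene order, read 5.57, 4.78, 4.95, 4.87 and 5.18 in non-cultured cells, 4.78, 4.66, 4.53, 4.85 and 4.53 without EV and 4.73, 4.76, 4.62, 4.70 and 4.61 with EV. The group with EV lay wholly below the non-cultured arrays, by as little as 4.76 against 4.78. Oas3 differed by -0.40 without EV (SE 0.13, adjusted p = 0.0495) and -0.38 with EV (SE 0.13, adjusted p = 0.0572). The call without EV held in 3 of 15 leave-one-out fits (those without non-cultured replicate 2 or 4, or replicate 4 without EV) and was lost in the other 12, with adjusted p up to 0.115. With EV it passed without non-cultured replicate 2 (adjusted p = 0.0302) or 4 (adjusted p = 0.0454).

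The Ifit genes, whose proteins sequester viral RNA that lacks proper cap methylation, were not called. Ifit1 read 5.75, 5.09, 5.07, 5.60 and 5.17 in non-cultured cells, 4.79, 4.92, 4.82, 4.95 and 5.58 without EV and 5.14, 4.52, 5.01, 4.67 and 4.89 with EV. Apart from replicate 5 without EV and replicate 1 with EV, the cultured arrays lay below all non-cultured ones. The log2 difference of Ifit1 was -0.33 without EV (adjusted p = 0.289) and -0.49 with EV (adjusted p = 0.0764), and on dropping replicate 5 cultured without EV, which changes the shared spread, the second reached 0.0382. Ifit3 read 6.26, 6.17, 6.46, 6.47 and 6.30, then 6.34, 6.56, 6.04, 6.36 and 6.36, and then 6.68, 5.87, 6.34, 6.11 and 6.32. Its 3 groups overlapped throughout, with log2 differences of -0.00 (95% interval -0.28 to 0.28) and -0.07 (95% interval -0.35 to 0.21). Ifit2, adjacent to Ifit3, differed by -0.35 and -0.18. Oasl1, Oasl2 and the exonuclease Isg20 differed by -0.44, -0.24 and -0.52 without EV and by -0.24, -0.08 and -0.52 with EV, with adjusted p from 0.0725 to 0.839.

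Some of these members crossed the threshold when 1 array was left out. Oasl1 did so in the comparison without EV when replicate 1 with EV was left out, which changes the shared spread alone (adjusted p = 0.0416). Isg20 was called in both comparisons once replicate 4 cultured without EV was dropped (adjusted p = 0.00422 without EV and 0.0173 with EV), and with EV also without replicate 1 of that group (0.0464).

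The sensors of viral RNA were not called in either comparison. Ifih1, which encodes MDA5, differed by 0.00 without EV (95% interval -0.39 to 0.39) and by -0.16 with EV. Ddx58, which encodes RIG-I, differed by -0.42 without EV (adjusted p = 0.121) and by -0.22 with EV (adjusted p = 0.467). Trim25, the ubiquitin ligase that assists RIG-I, differed by -0.25 and -0.45 (adjusted p = 0.433 and 0.0857). Its non-cultured replicates 1 to 3 read 8.39 to 8.55, whereas replicates 4 and 5 read 7.84 and 7.69 and lay among the cultured arrays (7.54 to 8.16). Without non-cultured replicate 4 or 5, Trim25 was called lower with EV (adjusted p = 0.046 and 0.0185).

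The Mx genes and the ISG15 system, which are textbook interferon reporters, gave little. Mx1, a dynamin-like antiviral GTPase, read 3.18, 3.21, 3.24, 3.25 and 3.03 in non-cultured cells, 2.96, 3.04, 3.09, 3.16 and 3.12 without EV and 3.24, 3.22, 3.12, 2.74 and 3.12 with EV, and its log2 differences were -0.11 (95% interval -0.31 to 0.09) and -0.10 (95% interval -0.30 to 0.10). Isg15, the ubiquitin-like modifier whose promoter holds 3 ISRE cores, read 4.09, 3.66, 3.70, 4.67 and 3.92, then 3.70, 3.58, 3.75, 3.64 and 3.16, and then 3.60, 3.77, 3.71, 3.55 and 3.37. The groups of both genes overlapped. Isg15 differed by -0.44 without EV (adjusted p = 0.104) and by -0.41 with EV (adjusted p = 0.134). Mx1, Mx2, Isg15 and Ifit2 belong to the dimmest 40% of genes on these arrays, and no signal over background is given, so a low level and none at all cannot be told apart for them.

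Usp18, the protease that removes ISG15 and restrains the type I receptor, read 5.00, 5.07, 4.76, 5.69 and 5.42 in non-cultured cells, 5.27, 5.54, 4.97, 5.11 and 5.66 without EV and 5.63, 5.57, 5.55, 5.24 and 5.10 with EV. The groups overlapped, and its log2 differences of 0.13 and 0.23 were not called (adjusted p = 0.765 and 0.454). Mx2 differed by -0.25 and -0.21. Parp9 and Parp14, ADP-ribosyltransferases that flank Dtx3l in the gene order, differed by 0.26 and 0.20 without EV and by 0.14 and 0.22 with EV. Ifi35 and the pro-apoptotic Xaf1 differed by -0.11 and -0.25 without EV and by -0.23 and -0.31 with EV, with adjusted p from 0.458 to 0.803. A second probe set of Ifi35, the one member with 2, differed by -0.08 and -0.15.

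The interferon-inducible GTPases, most of which are strongly induced by interferon gamma and act on pathogen vacuoles, did not move as a group. Gbp3 read 6.31, 6.10, 6.35, 6.27 and 5.33 in non-cultured cells, 4.65, 5.43, 5.34, 4.77 and 5.36 without EV and 5.28, 4.68, 4.77, 5.94 and 4.73 with EV. Apart from non-cultured replicate 5, the non-cultured arrays lay above all cultured ones. Gbp3 differed by -0.96 without EV (SE 0.26, adjusted p = 0.0179) and -0.99 with EV (SE 0.26, adjusted p = 0.015). Its neighbour Gbp7 differed by -0.15 and -0.52 (adjusted p = 0.735 and 0.0902), and the second was called without non-cultured replicate 3 (-0.63, adjusted p = 0.0424).

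Igtp, also known as Irgm3, lay above non-cultured cells, by 0.73 without EV (SE 0.25, adjusted p = 0.0668) and by 0.60 with EV (SE 0.25, adjusted p = 0.135). The first was called without non-cultured replicate 5 (adjusted p = 0.0442) or replicate 3 without EV (adjusted p = 0.0238). Irgm1 differed by 0.29 and 0.02 (adjusted p = 0.516 and 0.972). Guanylate-binding proteins and immunity-related GTPases are families of close copies, so signal from a relative cannot be told apart from a gene's own here.

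Socs1, the inhibitor of JAK kinases that interferon signalling induces to limit itself, read 6.08, 5.18, 6.02, 5.12 and 5.26 in non-cultured cells, 5.04, 4.55, 4.74, 5.00 and 4.74 without EV and 5.14, 4.80, 4.68, 4.85 and 5.23 with EV. Non-cultured replicates 1 and 3 stood well above the rest, and all 5 arrays without EV lay below all non-cultured ones. The log2 difference was -0.72 without EV (SE 0.19, adjusted p = 0.0185) and -0.59 with EV (SE 0.19, adjusted p = 0.0506). The call without EV was lost without non-cultured replicate 1 (adjusted p = 0.0514) or 3 (0.0522), or without replicate 2 without EV (0.0508). The value with EV passed without replicate 5 with EV (0.0424) or non-cultured replicate 2 (0.0365), 4 (0.0274) or 5 (0.0448).

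Of the members called, 10 of 12 without EV and 8 of 10 with EV kept their call whichever of the 15 arrays was dropped. The exceptions were Oas3 and Socs1 without EV, and Irf9 and Rsad2 with EV. The groups did not overlap for 8 members without EV, where 12.0% of all genes did not overlap, and for 7 with EV, where 11.2% did not.

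The list of interferon receptor chains, kinases and Stat3 had calls in the higher direction. In it 6 of 10 measured genes were called higher without EV and 4 of 10 with EV, where 6.75% and 6.28% of all genes were, and 0 were called lower. Ifnar1, a chain of the type I receptor, read 7.23, 7.43, 7.13, 7.19 and 7.37 in non-cultured cells, 7.73, 7.80, 7.87, 7.45 and 7.56 without EV and 7.49, 7.55, 8.0, 7.47 and 7.75 with EV, with no overlap. It rose by 0.41 without EV (SE 0.11, adjusted p = 0.0241) and by 0.38 with EV (SE 0.11, adjusted p = 0.0354). Its partner Ifnar2 rose by 0.46 (SE 0.11, adjusted p = 0.00837) and 0.51 (SE 0.11, adjusted p = 0.00389). Jak1 rose by 0.41 and Tyk2 by 0.39 without EV (adjusted p = 0.0126 and 0.0452), while with EV their differences of 0.20 and 0.23 were not called. Stat3 rose by 0.34 in both, and Il10rb, a chain of the lambda interferon and IL-10 receptors, by 0.70 and 1.03. The interferon gamma receptor genes Ifngr1 and Ifngr2 were not called, at 0.12 and -0.02 without EV and 0.17 and 0.43 with EV.

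The interferon genes themselves gave no call except Ifnl3, 1 of 19 measured, at 0.36 without EV and 0.41 with EV (adjusted p = 0.0187 and 0.00935). That is 5.26% of the list, where 6.75% of all genes were called higher without EV and 6.28% with EV. The signal level of Ifnl3 is not given here. Ifnb1 read 2.63 to 3.05 in non-cultured cells, 2.37 to 2.63 without EV and 2.47 to 3.08 with EV, and differed by -0.23 and -0.06. Ifng read 3.46 to 3.66, 3.52 to 3.70 and 3.55 to 3.78, and differed by 0.02 and 0.08. Both genes were at levels for which background and low expression cannot be told apart.

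Other interferon regulatory factors were called higher in 3 of 4 genes without EV and in 1 with EV, where 6.75% and 6.28% of all genes were. Irf8, which directs monocyte and dendritic cell fates, read 7.17, 6.83, 5.68, 7.16 and 6.48 in non-cultured cells, 7.53 to 8.59 without EV and 8.08 to 8.74 with EV, and rose by 1.63 (SE 0.26, adjusted p = 0.000427) and 1.80 (SE 0.26, adjusted p = 0.00018). Irf3 and Irf2 rose by 0.63 and 0.50 without EV and differed by 0.44 and 0.38 with EV (adjusted p = 0.0646 and 0.0889). Of 15 sensing genes and adaptors, 4 rose and 2 fell without EV, where 6.75% of all genes were called higher and 6.88% lower. With EV 3 rose and 2 fell, where 6.28% and 7.85% of all genes did. Tlr7, the endosomal receptor of single-stranded RNA, rose by 2.31 (SE 0.36, adjusted p = 0.000346) and 2.35 (SE 0.36, adjusted p = 0.000305). The adaptors Ticam1 and Mavs rose by 0.77 and 1.0 without EV and by 0.63 and 0.77 with EV, while the DNA sensor Cgas fell by 0.40 and 0.50 and Zbp1, named after its values were seen, fell by 0.52 and 0.51.

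Genes that brake the pathway split. Of 10, 3 rose and 2 fell in each comparison, where 6.75% of all genes rose and 6.88% fell without EV, and 6.28% and 7.85% with EV. Socs3, which limits STAT3 and is induced by cytokines, read 7.77, 7.24, 7.01, 7.52 and 7.40 in non-cultured cells, 4.47 to 5.90 without EV and 4.85 to 5.90 with EV. It fell by 2.03 (SE 0.24, adjusted p = 2.29e-05) and 1.91 (SE 0.24, adjusted p = 4.09e-05). The JAK and STAT phosphatase Ptpn2 fell by 0.59 and 0.71, and Ptpn6, the phosphatase SHP-1, rose by 0.57 and 0.59.

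A list of 75 further interferon-stimulated genes, outside the members, was mixed. Without EV, 11 were higher and 12 lower, where 6.75% and 6.88% of all genes were. With EV, 9 were higher and 17 lower, where 6.28% and 7.85% of all genes were. Those of the 75 with the smallest adjusted p were lower: Gbp11 by 2.12 and 2.01, Phf11b by 1.23 and 0.96, Gbp4 by 0.98 and 1.08, Epsti1 by 1.26 and 1.02 and Cmpk2, the neighbour of Rsad2, by 0.51 and 0.69. Among those that rose were Slfn2 (1.48 and 1.60), Trim34a (1.52 and 1.68) and Irgm2 (1.17 and 1.30), named after their values were seen. The median over the 75 was -0.09 without EV and -0.05 with EV, against 0.01 and 0.04 over all genes. Over all 133 pathway genes, 28 rose and 16 fell without EV, where 6.75% of all genes were called higher and 6.88% lower. With EV 21 rose and 21 fell, where 6.28% and 7.85% of all genes did. Between the cultured groups 0 of the 133 were called.

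**Figure D4:**
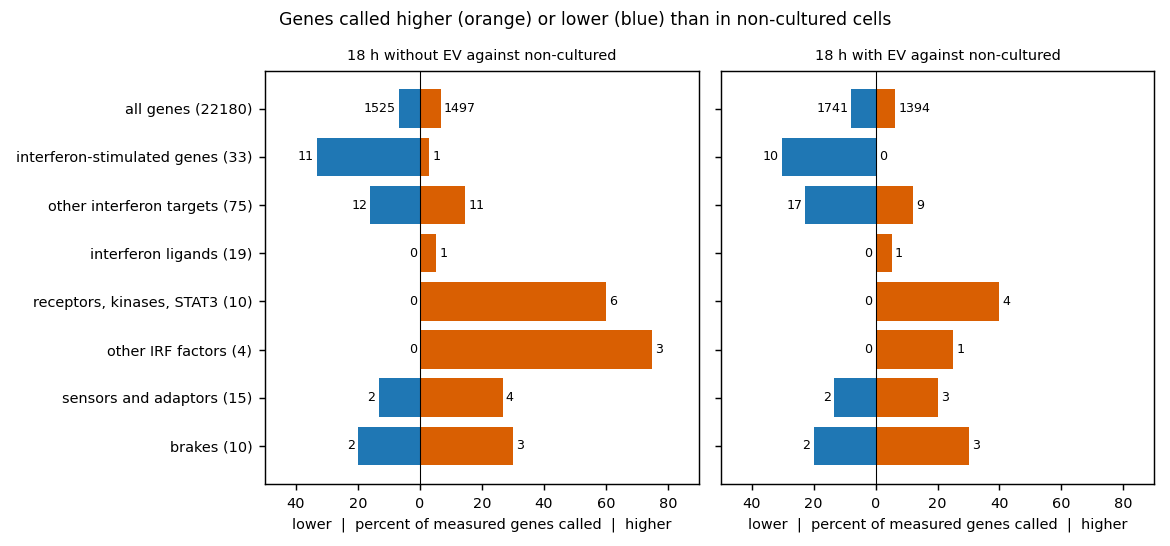
Percent of measured genes called higher (right) or lower (left) in each culture comparison, for the 33 members and the 6 pathway lists. The members lean to lower (11 of 33 without EV and 10 of 33 with EV), receptors, kinases and Stat3 to higher (6 of 10 and 4 of 10), and the 75 further interferon-stimulated genes to both sides.

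Markers of some other cell types, mainly monocytes and macrophages and part of the neutrophil list, were also higher in culture, and most other lists had few calls or none. In these bulk samples fewer cells of a type and less RNA per cell cannot be told apart. The LSK markers Kit, Flt3 and Cd34 were bright in all arrays, and the summed linear signal of 8 LSK markers ranged from 3600 to 4318 in non-cultured cells, 4327 to 4567 without EV and 3486 to 4540 with EV. Ly6a, which encodes Sca-1 and is itself an interferon-stimulated gene, is not analysed here. Over all genes, 6.75% were called higher and 6.88% lower without EV, and 6.28% and 7.85% with EV. Beside these shares, a single call in a short marker list is not read as a result about the cell type. Of 10 monocyte and macrophage markers, 7 were higher in both culture comparisons, with summed signals of 1673 to 1739, 4372 to 5820 and 4184 to 5757. Of 10 neutrophil markers, 4 were higher and 1 lower without EV, and 3 and 1 with EV. Of 8 T and NK cell markers 1, Nkg7, was lower, by 2.11 without EV and 2.18 with EV on the log2 scale. The summed signal of the 8 was 401 to 573, 165 to 212 and 152 to 259, and the other 7 markers were not called, with log2 differences between -0.27 and 0.20. Of 6 markers of plasmacytoid dendritic cells, the classic interferon producers, Siglech was higher in both comparisons (log2 difference 1.18 and 0.76, adjusted p = 0.0022 and 0.0358) and the other 5 were not called, with sums of 191 to 245, 208 to 331 and 214 to 271. Of 5 B cell markers 0 were called in either comparison, of 3 erythroid markers 1 was higher without EV, and of 8 stromal markers 3 were higher with EV. The part of these cells in the members' differences was not tested.

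Non-cultured replicates 4 and 5 stood apart from 1 to 3 in the neutrophil markers, with summed signals of 1706 and 1581 against 3257 to 3595. Replicates 4 and 5 were also lowest without EV (4939 and 4060 against 5687 to 6126) and with EV (4277 and 4247 against 5350 to 5584). Their monocyte and macrophage sums were lowest in both cultured groups (4720 and 4372 against 5211 to 5820, and 4184 and 4224 against 5472 to 5757). In non-cultured cells that sum was highest in replicate 5 (1739). Against non-cultured replicates 1 to 3 alone, 12 members were called without EV and 9 with EV, where 11.7% and 12.2% of all genes were called in the same fits. Against replicates 4 and 5 alone, chosen after seeing the data and with fewer arrays, 6 and 8 members were called, where 6.48% and 6.17% of all genes were. Irf1, Cxcl10, Bst2 and Ifitm2 were called in both comparisons with either reference. Trim25 was called lower against replicates 1 to 3 (-0.54 without EV and -0.74 with EV, adjusted p = 0.0149 and 0.00167) and not against 4 and 5 (0.19 and -0.02). Ddx58 did the reverse, at -0.84 and -0.64 against replicates 4 and 5 (adjusted p = 0.00851 and 0.0416) and -0.15 and 0.06 against 1 to 3. Socs1 against replicates 4 and 5 was -0.38 without EV (adjusted p = 0.285).

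Between cells cultured with and without EV, the members' differences ran from -0.41 (Ifitm2) to 0.63 (Cxcl10), with 17 of 33 below 0 and a median of -0.01, against 0.01 over all genes. The 4 factors ranged from -0.29 (Irf9) to 0.05 (Irf1), the 8 RNA effectors from -0.17 (Ifit1) to 0.20 (Oasl1) and the 4 GTPases from -0.37 (Gbp7) to -0.03 (Gbp3). The widest 95% interval was that of Xaf1 (-0.69 to 0.56), and the narrowest that of Mx1 (-0.19 to 0.21). Stromal markers summed to 155 to 168 without EV and 168 to 212 with EV, and Cxcl12, a stromal chemokine, differed by 0.50 between these groups, which was not called (adjusted p = 0.33), and 0 of the 8 stromal markers were called between them. Replicate 1 with EV had the lowest mean correlation with its own group (0.964, the others 0.973 to 0.983), and without it 0 members were called between the cultured groups as well.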

How the data were processed

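Per the labels' protocols, biotinylated targets were made from 500 pg of total RNA of each sample. The authors' deposited values, 1 column for each of 15 arrays and 41345 probe sets, span 1.40 to 13.03, a range taken as log2, since no source states the base. The submitters' processing notes list only MAS5, without saying what it was used for. Background correction and normalization: not given in the sources used here, so the values were used as deposited (array medians 4.62 to 4.74). No pair of arrays held identical values. The number of arrays limits the precision, p-values measure the spread between these samples, and no batch, date or animal is given.

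Of the probe sets, 23521 carry 1 gene symbol in the platform annotation, 1814 several and 16010 none. The brightest single-symbol probe set stood for each of 22180 genes. All arrays entered 1 group-means fit in limma 3.58.1 (lmFit, eBayes; R 4.3.3; 12 residual and 3.66 prior degrees of freedom), and two-sided p-values were adjusted by Benjamini and Hochberg over all 22180 genes, separately for each comparison. Differences are first group minus second, SE is the moderated standard error, and n is 5 in every group. The fit was tested on simulated data. The members, the pathway and marker lists, and the rule for named genes were chosen with earlier results of these data known. By that rule, values in every array were given for members called in any comparison and for 12 members fixed by name, and of each pathway list the 4 genes with the smallest adjusted p could be named, besides receptor, kinase and ligand genes fixed by name. Marker lists covered LSK, monocyte and macrophage, neutrophil, plasmacytoid dendritic, B, T and NK, erythroid and stromal cells. Alternatives were quantile normalization, median centring, dropping the dimmest 40% of genes, averaging probe sets, fitting only the groups compared, an intensity trend, array weights, a replicate block, leaving out each array, and parts of the replicates. The comparisons within replicates 1 to 3 and within 4 and 5, the block between these, the reference of non-cultured replicates 4 and 5, and the shorter promoter window were added after seeing the data. Promoter windows are RefSeq's of GRCm38.p6, matched by symbol.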

Additional observations from a re-analysis of the deposited data

Results flagged for a closer look

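In 11 of 99 sets of 5 arrays (33 members in 3 groups), 1 array stood apart from the other 4 of its group by the Dixon test at 5%, where chance alone gives about 1 in 20. In non-cultured cells the lowest array stood apart for Irf9 (5.65, replicate 2), Cxcl10 (5.57, replicate 4), Gbp3 (5.33, replicate 5) and Gbp7 (6.01, replicate 3), and the highest for Ifitm3 (10.47, replicate 3). Without EV, the lowest array stood apart for Isg15 (3.16, replicate 5) and Xaf1 (5.23, replicate 2), and the highest for Ifit1 (5.58, replicate 5). With EV, the lowest array stood apart for Mx1 (2.74, replicate 4) and Ifi35 (5.98, replicate 3), and the highest for Mx2 (4.38, replicate 2). Values are log2 signals. These 11 cases fell on 9 arrays of all 3 groups, and non-cultured replicate 3 and replicate 5 without EV were each named for 2 members.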

How the results depend on the processing

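Leaving out 1 array at a time, between 10 and 13 members were called without EV against non-cultured cells (9 to 12 lower), 8 to 12 with EV (8 to 11 lower) and 0 to 0 between the cultured groups. Pathway genes called ranged from 36 to 45, from 35 to 43 and from 0 to 0. Quantile normalization left 0 members without overlap between the cultured groups (1 as deposited). With non-cultured replicates 4 and 5 as the reference, 6 members (6 lower) and 18 pathway genes were called without EV, and 23 pathway genes with EV. Within replicates 1 to 3 of every group, 27 pathway genes were called without EV. Within replicates 4 and 5, 3 members (3 lower) and 6 pathway genes were called without EV, and 3 members (3 lower) and 5 pathway genes with EV. These fits use fewer arrays, and no other cause was tested. Apart from the fits with part of the non-cultured replicates as reference, the share of all genes called under each alternative is not given here. The changes in these counts are therefore not read as results about the members. Every other count of members, pathway genes or ISRE and GAS cores stayed within 1.5 times its value as reported. No called member changed direction under any alternative run: of 2760 single-member values under alternatives, 2606 kept their call and stayed within the spread between arrays or kept passing, 74 lost a call, 56 gained one and 24 moved by more than that spread.

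The labels do not say whether replicate numbers pair samples across the groups. Deviations of same-numbered arrays correlated between -0.125 and 0.187, and only some arrays correlated best with their own number. Correlations of single numbers cannot show blocks of replicates, and replicates 4 and 5 had the lowest summed neutrophil markers in every group. With the replicate number as a block, 13 members were called without EV (11 lower), 11 with EV (10 lower) and 0 between the cultured groups. The share of all genes called in that fit is not given here, so these counts are not read as a result about the members.

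The dimmest members (Ifit2, Mx1, Mx2 and Isg15) are limited by unknown background. Changes of the scaling moved the median of all genes by under 0.1 on the log2 scale.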

Other observations

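Several guanylate-binding protein genes outside the members were lower in culture, as Gbp3 was. Of 9 measured Gbp genes (Gbp3 and Gbp7 among them), all 9 lay below non-cultured cells in both culture comparisons, 5 were called lower without EV and 6 with EV, where 6.88% and 7.85% of all genes were, and 0 were called higher. Gbp11 fell by 2.12 and 2.01, Gbp10 by 0.79 and 1.09, Gbp4 by 0.98 and 1.08 and Gbp9 by 0.58 and 0.57 on the log2 scale (limma adjusted p from 0.000145 to 0.0331). Gbp6 fell by 0.38 with EV (adjusted p = 0.0377) and differed by -0.31 without EV (adjusted p = 0.0981). Gbp5 and Gbp8 were not called, at -0.26 and -0.92 without EV and -0.27 and -1.08 with EV. Between cells cultured with and without EV, 0 of the 9 were called. The family was singled out after its values were seen, and its close copies may share signal, so these are not 9 separate observations.

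The immunity-related GTPases differed in direction. Iigp1 fell by 1.07 and 0.93 (adjusted p = 0.0129 and 0.0284), Irgm2 rose by 1.17 and 1.30 (adjusted p = 0.00898 and 0.00425), and Igtp and Irgm1 were not called. Of the enzymes that attach ISG15, the activating enzyme Uba7 rose by 0.69 without EV (adjusted p = 0.0105) and differed by 0.43 with EV, while the conjugating enzyme Ube2l6 differed by -0.39 without EV and fell by 0.51 with EV (adjusted p = 0.0255). These genes were also named after their values were seen.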
